A study of Sus scrofa with 6 samples.

Results

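NR4A1, NR4A2 and NR4A3 form the NR4A family of orphan nuclear receptors, and the family was read here in the long back muscle of Tibetan pigs. Members were the rows whose Ensembl pig gene ID carries the symbol of a family member in the table of gene names. This found 2 of the 3 members among 25322 genes, NR4A2 (ENSSSCG00000015871) and NR4A3 (ENSSSCG00000005385), and NR4A1 is not analysed here. The family was chosen because NR4A2 was among the genes that differed between the groups compared below. The values of the members in that comparison are therefore a description and carry no test.

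NR4A receptors are transcription factors that bind DNA as monomers, as dimers, or, for NR4A1 and NR4A2, together with a retinoid X receptor. No natural hormone switches them on, because bulky side chains fill the pocket where other nuclear receptors hold their ligand, so the amount of receptor is set largely by transcription. Their genes are immediate early genes, which are transcribed within minutes of a stimulus such as cyclic AMP, calcium, growth factors or stress. In skeletal muscle they are known to respond to beta-adrenergic stimulation and to exercise, and they act on genes of glucose and fat use.

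RNA of longissimus dorsi muscle was sequenced in 6 female Tibetan pigs, a highland breed, with 1 library per animal. The high altitude group held 3 free-ranging pigs living at about 4000 m on the Tibetan plateau. The low altitude group held 3 pigs of a Tibetan line bred for several generations on the plain near Chengdu, at about 500 m, and fed daily under experimental conditions. No allele, transgene or drug is named for either group, and ages are not given. Altitude, breeding history, housing, feeding and place differ together between the groups and cannot be told apart. Other conditions of the animals or of sampling may differ as well. The unit is FPKM, fragment numbers divided by gene length and by the library's mapped total, so levels of different genes can be set side by side.

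FPKM totals ran from 506611 to 571855 per library. Absolute depth is unknown, and the spacing of the lowest values gave relative depths of 0.854 to 1.21. The 5 matched skeletal muscle markers summed to an FPKM of 29150 to 36076 in the high and 30863 to 33162 in the low altitude libraries, and none of the 5 was at 0, as the tissue label has it. High altitude library 1 stood apart from the other 5 on the first principal component (31.5% of the variance), and had the lowest summed level of 5 matched fibroblast and matrix markers (246, against 688 to 1067 in the other libraries). Results that turned direction or moved by over 1.5 times when it was left out are also given without it.

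NR4A2, a receptor best known for its role in dopamine neurons and also an early response gene in muscle, was low in every high altitude animal and well above that in every low altitude animal. Its FPKM was 0.437, 0.653 and 0.635 in high altitude libraries 1 to 3. In low altitude libraries 1 to 3 it was 9.52, 10.6 and 7.91. The groups did not overlap: the lowest low altitude library was 12.1 times the highest high altitude library. Mean FPKM was 0.575 ± 0.120 (SD, n = 3) at high and 9.33 ± 1.34 at low altitude, a ratio of 16.2. The animals of a group were close to one another, with a coefficient of variation of 20.9% at high and 14.3% at low altitude. Leaving out any 1 library kept the ratio between 14.5 and 17.5, and it was 14.5 without high altitude library 1.

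NR4A3, also called NOR-1 and a receptor that responds strongly to exercise in human muscle, was likewise higher at low altitude in each library, but the animals varied much more. Its FPKM was 0.303, 1.68 and 0.783 in high altitude libraries 1 to 3, and 2.35, 6.31 and 3.57 in low altitude libraries 1 to 3. The groups did not overlap, yet they came close: the lowest low altitude library was 1.40 times the highest high altitude library. Mean FPKM was 0.920 ± 0.697 (SD, n = 3) at high and 4.08 ± 2.03 at low altitude, a ratio of 4.43. The coefficient of variation was 75.7% at high and 49.8% at low altitude. High altitude library 2 weighed on this ratio, which was 7.51 without it, and 3.32 without high altitude library 1. It was 3.21 without low altitude library 2, where NR4A3 was highest.

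**Figure D1:**
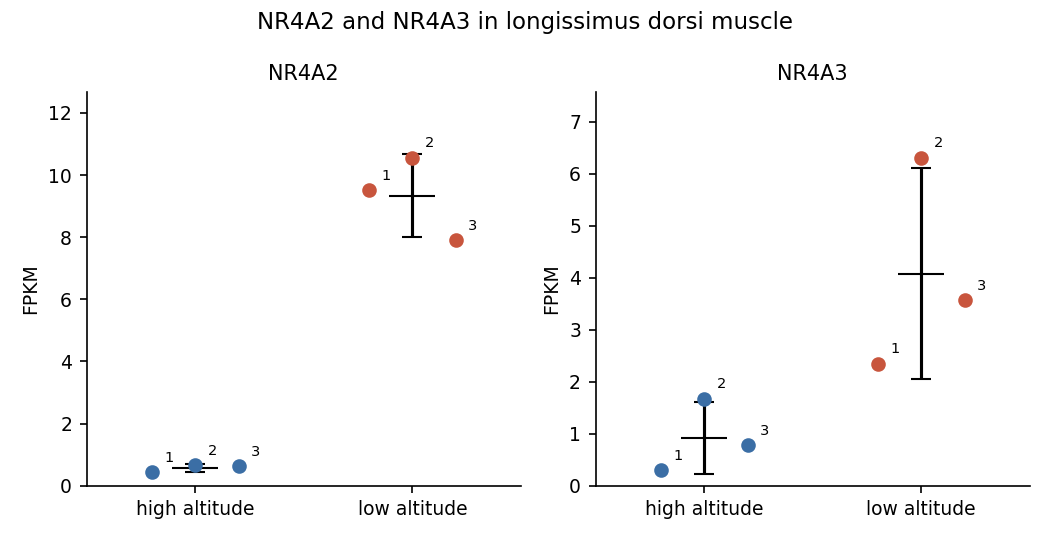
FPKM of NR4A2 (left) and NR4A3 (right) in each library, with library numbers beside the points. Bars give the mean ± SD of 3 animals per group. NR4A2 sits between 0.437 and 0.653 at high and between 7.91 and 10.6 at low altitude, and NR4A3 spreads from 2.35 to 6.31 at low altitude.

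On the scale used for testing, log2(FPKM + 1), the fitted difference of low minus high altitude was 2.71 (SE 0.15) for NR4A2 and 1.39 (SE 0.35) for NR4A3. The added 1 makes these differences smaller than the ratios of FPKM. With 0.1 added in place of 1, the difference was 3.81 for NR4A2 and 2.17 for NR4A3. Genes were tested where 3 or more libraries reached an FPKM of 1. Of these 10005 genes, NR4A2 had the 9th largest difference and NR4A3 the 57th. NR4A2 reached that level only in the 3 low altitude libraries, so passing this filter already required it to be higher there. NR4A3 reached it in those 3 and in high altitude library 2. In the limma test over all these genes 1 of the 2 members, NR4A2, passed a Benjamini-Hochberg adjusted p of 0.05. Of all tested genes 0.16% passed as higher at low altitude (16 genes) and 0.07% as lower (7 genes). Where each library was rescaled to a common total these were 26 and 6 genes, and the median difference of all genes moved from 0.041 to 0.10. Both members had all low altitude libraries above all high altitude libraries, as did 11.3% of tested genes. Because the members were picked from this comparison, nothing is read from their counts.

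The levels of the members were set beside each other in each library. At high altitude NR4A3 was above NR4A2 in libraries 2 and 3, by factors of 2.57 and 1.23, and below it in library 1, where NR4A2 was 1.44 times NR4A3. Their ranges overlapped there, so the members did not differ beyond their spread at high altitude. At low altitude NR4A2 was above NR4A3 in all 3 libraries, by factors of 4.06, 1.67 and 2.22, and the ranges did not overlap. NR4A2 made up 59.1, 28.0 and 44.8% of the summed FPKM of the pair in high altitude libraries 1 to 3. It made up 80.2, 62.6 and 68.9% in low altitude libraries 1 to 3. The summed level of the pair was 1.5 ± 0.797 FPKM (SD, n = 3) at high and 13.4 ± 3.01 at low altitude. In order of mean FPKM the 4 levels ran from NR4A2 at high altitude through NR4A3 at high and NR4A3 at low to NR4A2 at low altitude, and of the neighbours in this order only the high altitude levels overlapped in range.

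Set against the rest of the transcriptome, both receptors were scarce at high altitude. NR4A2 lay above 1.41, 1.16 and 0.610% of the tested genes in high altitude libraries 1 to 3, and NR4A3 above 0.910, 16.9 and 1.02%. In the low altitude libraries NR4A2 lay above 69.9, 70.7 and 65.1% of the tested genes, in the upper part of the distribution. NR4A3 lay above 27.9, 57.7 and 40.9%, nearer the middle. The filter on low values removes most genes this scarce, which sets these shares low at high altitude. In bulk muscle, fewer cells that express a receptor and less of its RNA per cell cannot be told apart.

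Other nuclear receptors, the hormone, vitamin, lipid and orphan receptors of the same superfamily, gave a frame for these levels. Of 45 listed 39 were matched and 20 tested. Among all 41 matched receptors, NR4A2 and NR4A3 included and tested or not, NR4A2 ranked 28 by mean FPKM at high altitude and 8 at low altitude. NR4A3 ranked 22 and 13. At low altitude NR4A2 thus had a level between NR2F6 (10.5 ± 1.44 FPKM, SD, n = 3) and the liver X receptor NR1H3 (8.54 ± 0.549). Of the 20 other receptors 11 had differences above 0 and 9 below 0, beside 57.7% of all tested genes above 0. The median of the 20 was 0.05, beside 0.04 for all tested genes. That median lay between −0.06 (without high altitude library 1) and 0.21 over the 18 alternatives of processing. None of the 20 passed in limma with Benjamini-Hochberg adjustment, and 4 had an unadjusted p under 0.05, as did 9.42% of all tested genes.

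Several of these receptors respond to the clock or to fat metabolism. NR1D2, a clock receptor that represses transcription, was at 17.7, 13.4 and 13.9 FPKM in high and 26.4, 21.7 and 23.9 in low altitude libraries 1 to 3 (log2 difference 0.65, limma, Benjamini-Hochberg adjusted p = 0.287). RORA, the activator that competes with it, was at 5.10 ± 0.525 (SD, n = 3) and 8.26 ± 2.78 FPKM (0.56, limma, Benjamini-Hochberg adjusted p = 0.522). NR2C2 was at 2.09 ± 0.0884 and 2.77 ± 0.185 (0.29, limma, Benjamini-Hochberg adjusted p = 0.506). NR2F2, a regulator of vessel and mesenchymal development, was lower in mean at low altitude, 5.01 ± 1.31 against 3.13 ± 0.502 (−0.52, limma, Benjamini-Hochberg adjusted p = 0.476), with ranges that overlapped. The estrogen receptor ESR1, named after its values were seen, had the largest difference of the 22, 3.25 with an SE of 1.90. That difference came from low altitude library 1 alone, at 474 FPKM, against 0.715 and 3.09 in libraries 2 and 3 and 0 to 1.23 at high altitude.

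**Figure D2:**
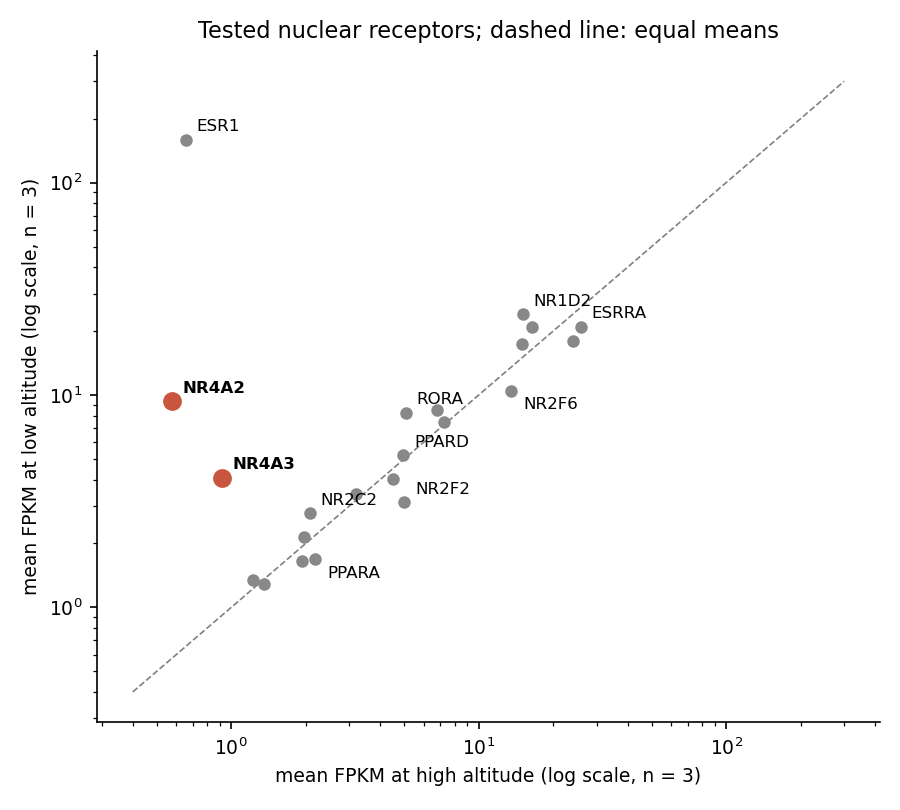
Mean FPKM of the 22 tested nuclear receptors at high altitude (x axis) and low altitude (y axis), both on log scales, n = 3 animals each. NR4A2 (0.575 and 9.33) and NR4A3 (0.920 and 4.08) lie above the dashed line of equal means, most other receptors lie near it, and the ESR1 mean rests on 1 library.

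RNA levels of genes on the routes that switch on NR4A genes were read in lists written with earlier results of these data known. The RNA of a receptor, kinase or factor does not give the activity of its route, which was not measured here. The first list held the cyclic AMP route, from beta-adrenergic receptors through adenylyl cyclases and protein kinase A to CREB and its coactivators. Of 28 listed genes 20 were matched and 14 tested. Of the 14, 11 lay above 0 and 3 below, beside 57.7% of all tested genes above 0. The median difference was 0.16, and ran from 0.06 without a filter on low values to 0.23 over the alternatives. Leaving out high altitude library 3 gave 0.09, and leaving out low altitude library 1 gave 0.10. By limma with Benjamini-Hochberg adjustment 0 of 14 passed, and 1 had an unadjusted p under 0.05, beside 9.42% of all tested genes. The catalytic kinase subunit PRKACA was at 42.8, 40.5 and 45.6 FPKM in high and 42.8, 47.7 and 36.6 in low altitude libraries 1 to 3, and the groups overlapped. CREBBP, the histone acetyltransferase that binds activated CREB, was at 3.50, 4.15 and 4.17 in high and 5.28, 5.29 and 6.47 in low altitude libraries 1 to 3 (0.43, limma, Benjamini-Hochberg adjusted p = 0.398). The related EP300 (0.23), the kinase SIK3 (0.26) and the CREB coactivator CRTC2 (0.26) had smaller differences, with limma Benjamini-Hochberg adjusted p of 0.678, 0.617 and 0.608. Without high altitude library 1 the EP300 difference was 0.11. The beta-adrenergic receptor genes ADRB1 and ADRB3 stayed at or below an FPKM of 0.419 in all libraries and were not tested.

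Genes known to be induced by cyclic AMP, as the NR4A genes are, stood higher at low altitude in mean, each of the 8 matched and tested of 14 listed. Of all tested genes 57.7% had a difference above 0. This list too was written with earlier results of these data known, so its counts are descriptions. The median difference of the 8 was 0.77, against 0.04 for all tested genes, and lay between 0.59 and 1.48 over the alternatives. The 1.48 came with the filter at a mean FPKM of 5, which tested fewer of them. Over all genes 1 of 8 rose by limma with Benjamini-Hochberg adjustment, PER1, beside 0.16% of all tested genes. An unadjusted limma p under 0.05 was found for 5 of 8, beside 9.42% of all tested genes. The low altitude libraries lay above all high altitude libraries in 4 of 8, beside 11.3% of all tested genes. Without high altitude library 1 the numbers were 2 that rose and 6 that did not overlap, beside 0.1% and 14.3% of all tested genes under the same omission.

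PER1, a clock repressor whose promoter answers to CREB, was at 6.76, 4.94 and 7.45 FPKM in high and 43.7, 51.0 and 67.9 in low altitude libraries 1 to 3. All low altitude animals stood far above all high altitude animals (2.89, SE 0.21, limma, Benjamini-Hochberg adjusted p = 0.00591). FOS, a subunit of the AP-1 factor, was at 17.7, 6.08 and 4.0 in high and 64.6, 38.1 and 52.2 in low altitude libraries 1 to 3 (2.56, SE 0.47, limma, Benjamini-Hochberg adjusted p = 0.147). High altitude library 1 had the highest FOS of its group, and without it FOS passed (3.11, limma, Benjamini-Hochberg adjusted p = 0.0187, range over alternatives 0.0187 to 0.440). DUSP1, a phosphatase that shuts off MAP kinases, was at 34.8 ± 18.6 (SD, n = 3) and 93.7 ± 27.2 FPKM (1.48, limma, Benjamini-Hochberg adjusted p = 0.282). JUNB, another AP-1 subunit, was at 4.86 ± 1.57 and 8.84 ± 2.95, and its groups overlapped (0.73, limma, Benjamini-Hochberg adjusted p = 0.498). PPARGC1A, the coactivator of mitochondrial genes that cyclic AMP and exercise induce, lay between 2.16 and 3.05 FPKM in the high altitude libraries and between 2.85 and 4.01 in the low. Its groups overlapped, as did those of EGR1 and GEM of this list, and PPARGC1A was not among the genes named by rule.

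**Figure D3:**
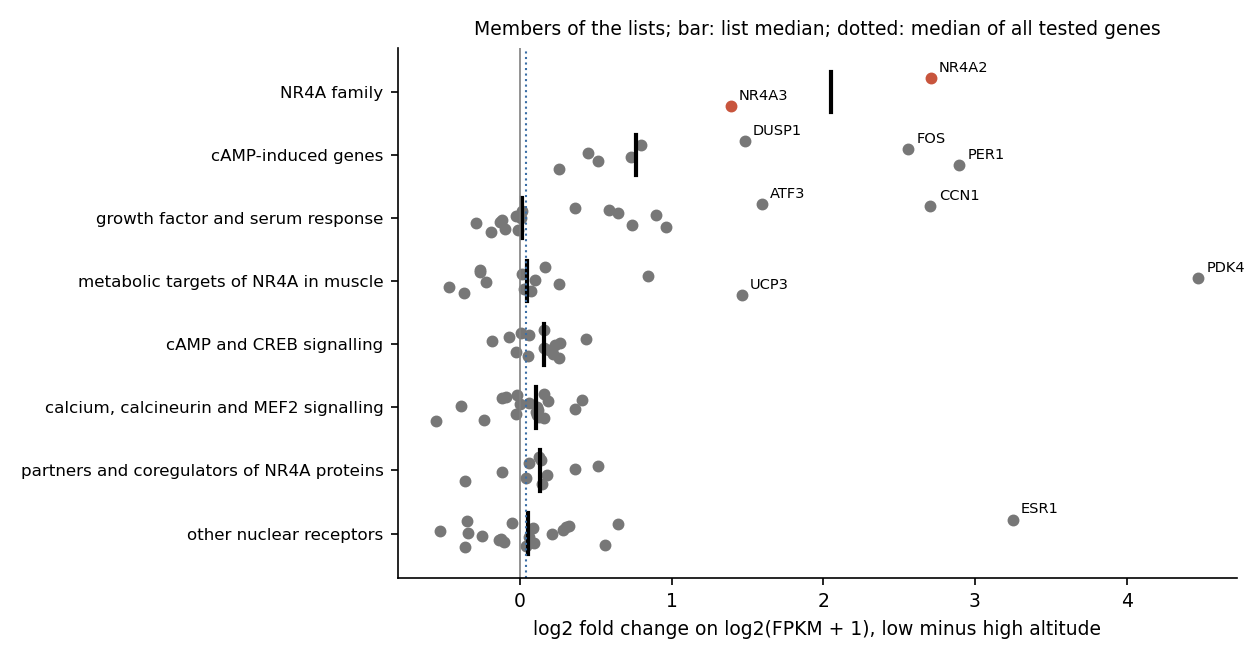
Difference of low minus high altitude on the log2(FPKM + 1) scale for each tested member of the lists (points), with the list median (black bar) and the median of all tested genes (dotted line, 0.04). NR4A2 and NR4A3 are in red, and genes beyond 1.2 are named. The cAMP-induced genes all lie above 0, with a median of 0.77, beside 57.7% of all tested genes above 0.

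Calcium, which reaches NR4A genes through calcineurin, calcium-dependent kinases and the MEF2 factors that sit on their promoters, made up another list. Of 26 listed genes 22 were matched and 19 tested, 12 above and 7 below 0, beside 57.7% of all tested genes above 0. The median of the 19 was 0.11, and was −0.02 without high altitude library 1 and at most 0.16 over the alternatives. None of the 19 passed in limma with Benjamini-Hochberg adjustment, and 2 had an unadjusted p under 0.05, beside 9.42% of all tested genes. MEF2A, MEF2C and MEF2D overlapped between the groups, as did calcineurin's catalytic subunits PPP3CA and PPP3CB. HDAC4, a deacetylase that holds MEF2 silent, was at 1.36 ± 0.187 (SD, n = 3) and 2.14 ± 0.452 FPKM (0.41, limma, Benjamini-Hochberg adjusted p = 0.476). RCAN2, an inhibitor of calcineurin, was at 6.87 ± 1.12 and 4.46 ± 1.46 (−0.55, limma, Benjamini-Hochberg adjusted p = 0.493). NFATC1, which calcineurin sends to the nucleus, and CABIN1, which binds both calcineurin and MEF2, had differences of 0.36 and 0.16 (limma, Benjamini-Hochberg adjusted p = 0.604 and 0.713).

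Growth factor and serum signalling, with the MAP kinases, serum response factor and early genes downstream of them, held 29 genes, of which 20 were matched and 17 tested. In limma with Benjamini-Hochberg adjustment 0 of 17 passed, while 7 had an unadjusted p under 0.05, beside 9.42% of all tested genes. The median was 0.02, lay between −0.04 and 0.36 over the alternatives, and was 0.28 without high altitude library 1. In 7 of 17 all low altitude libraries lay above all high altitude libraries, beside 11.3% of all tested genes. These 7 were CCN1, KLF4, NFKBIA, MYC, IER2, ATF3 and the factor ELK4. The early genes IER3 and IER5 overlapped between the groups. IER2, IER3, IER5, ATF3 and ELK4 were named after their values were seen. CCN1, a matrix protein that growth factors and stretch induce, was at 7.74, 3.17 and 4.31 FPKM in high and 60.9, 23.3 and 34.8 in low altitude libraries 1 to 3. It missed the threshold (2.71, SE 0.39, limma, Benjamini-Hochberg adjusted p = 0.0746), with 0.0110 to 0.266 over the alternatives. KLF4, a zinc finger factor, was at 4.89 ± 1.13 (SD, n = 3) and 9.96 ± 1.73 (0.90, limma, Benjamini-Hochberg adjusted p = 0.208). NFKBIA, the inhibitor of NF-kappa-B, was at 13.3 ± 4.24 and 26.1 ± 1.80 (0.97, limma, Benjamini-Hochberg adjusted p = 0.273). MYC was at 2.66 ± 0.0510 and 5.15 ± 0.796 (0.74, limma, Benjamini-Hochberg adjusted p = 0.155). The kinases MAP2K1 and MAP2K2 and the factor SRF overlapped between the groups. ZFP36 was listed at 0 in all 6 libraries, which here may mean a failed estimate.

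**Figure D4:**
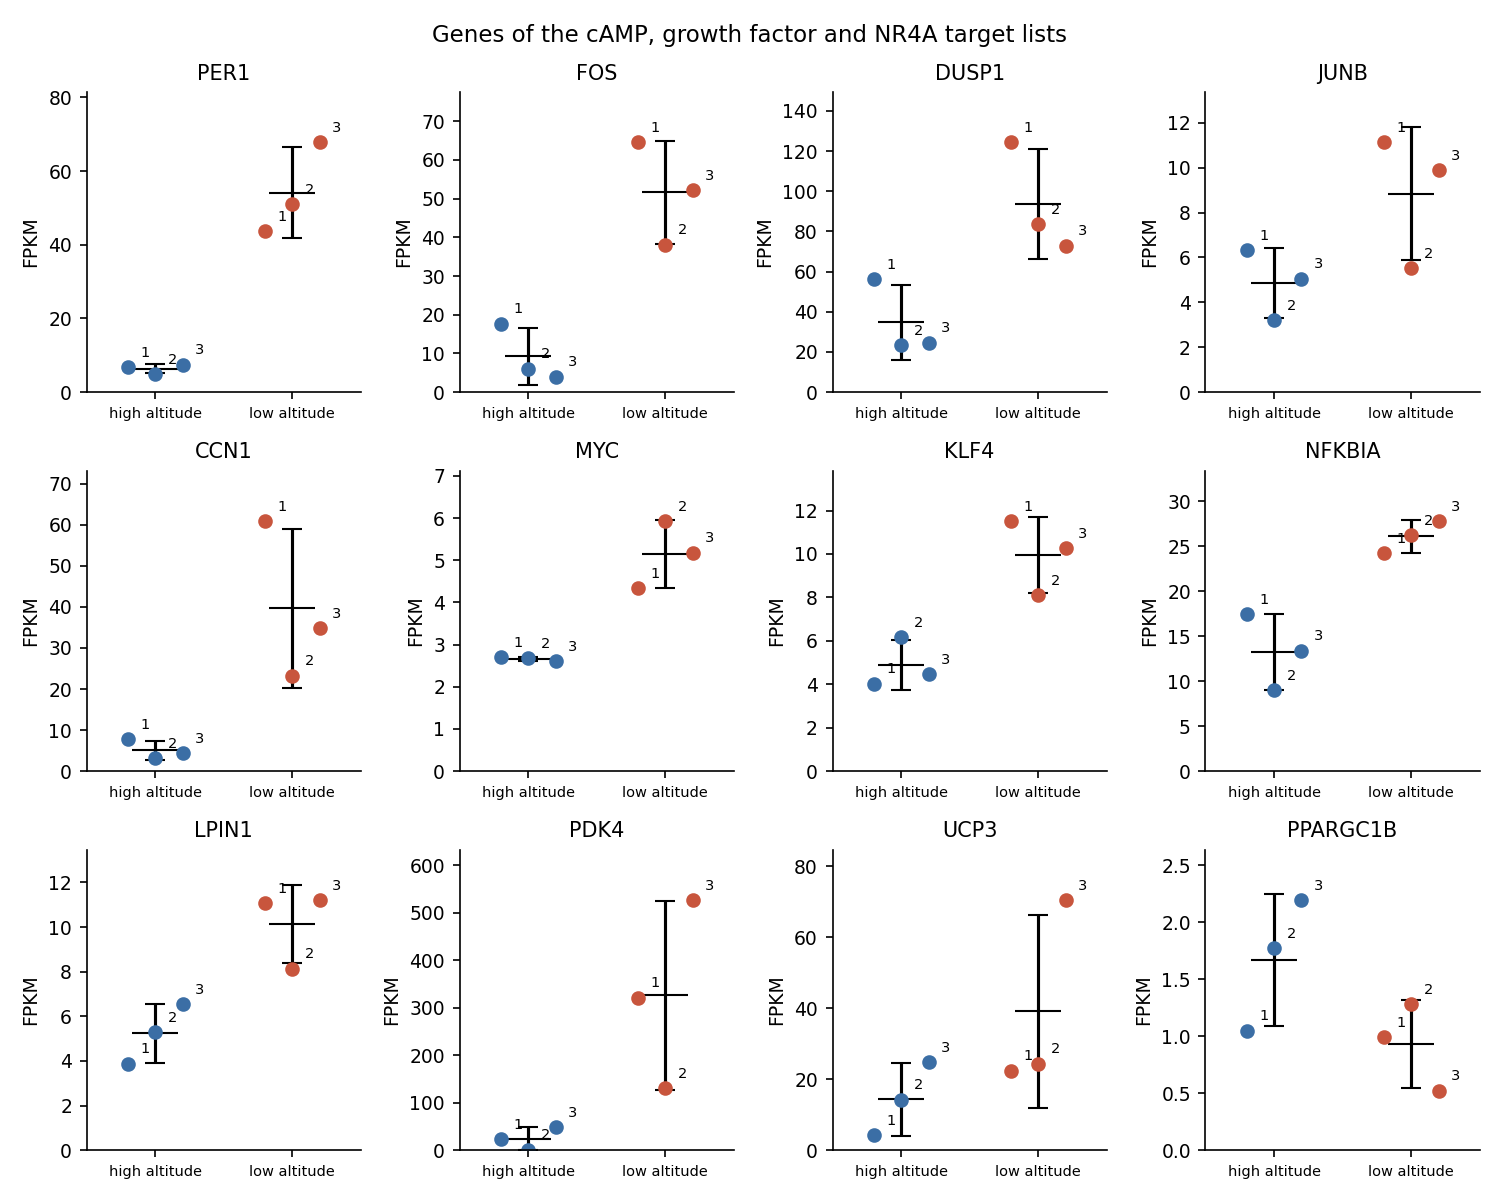
FPKM of the 12 genes named by rule from the lists of cAMP-induced, growth factor and metabolic target genes, per library (points with library numbers), with mean ± SD of 3 animals per group as bars. In 9 of the 12 the low altitude libraries lie above the high altitude libraries, JUNB, UCP3 and PPARGC1B overlap, and of the 12 PER1 passed the test over all genes. The rule took the smallest unadjusted p of each list, which favours groups that do not overlap, so these 9 are not to be read against the 11.3% of all tested genes.

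NR4A proteins work with retinoid X receptors, coactivators and corepressors, and 12 of 16 such partners were matched, 10 of them tested. Of these 8 were above 0 and 2 below, beside 57.7% of all tested genes above 0. The median of the 10 was 0.13, and was 0.07 without high altitude library 1 and at most 0.20 over the alternatives. By limma with Benjamini-Hochberg adjustment 0 of 10 passed, and 1 had an unadjusted p under 0.05, beside 9.42% of all tested genes. NCOR1, a corepressor of nuclear receptors, was at 4.82, 5.80 and 6.56 FPKM in high and 8.61, 8.38 and 8.64 in low altitude libraries 1 to 3 (0.51, limma, Benjamini-Hochberg adjusted p = 0.332). Each low altitude animal was thus above every high altitude animal in NCOR1, and the difference did not pass the threshold. The coactivator NCOA1 and the corepressor RCOR1 differed by 0.14 and 0.18 (limma, Benjamini-Hochberg adjusted p = 0.761 and 0.770). The retinoid X receptor RXRG, the more abundant of the 2 matched, was at 16.5, 18.2 and 37.6 in high and 14.8, 25.2 and 13.9 FPKM in low altitude libraries 1 to 3, and the groups overlapped. RXRB was at 7.24 ± 0.972 (SD, n = 3) and 7.50 ± 1.15, above NR4A3 in mean in both groups. Against NR4A2 its mean was higher at high altitude (NR4A2 at 0.575) and lower at low altitude (NR4A2 at 9.33). The ranges of RXRB and NR4A2 overlapped at low altitude.

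Metabolic genes reported to answer to NR4A receptors in muscle formed the last list, with 18 genes, 15 matched and 14 tested. Of the 14, 9 were above and 5 below 0, beside 57.7% of all tested genes above 0. The median of the 14 was 0.05, and was −0.15 without high altitude library 1 and 0.18 without high altitude library 2. In limma with Benjamini-Hochberg adjustment 0 of 14 passed, and 2 had an unadjusted p under 0.05, beside 9.42% of all tested genes. The glycogen phosphorylase PYGM was at 4195, 4036 and 3619 FPKM in high and 4318, 3803 and 4323 in low altitude libraries 1 to 3, and phosphofructokinase PFKM was at 912 to 1099 and 975 to 1189. Both overlapped between the groups, and so did the enolase ENO3 and the bisphosphatase FBP2. The mutase PGAM2, named after its values were seen, was at 2993 to 3316 in the low and 3366 to 3978 in the high altitude libraries (−0.22, limma, Benjamini-Hochberg adjusted p = 0.624).

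The largest difference of that list was that of PDK4, the kinase that closes pyruvate dehydrogenase. PDK4 was at 22.9, 0.722 and 48.3 FPKM in high and 321, 130 and 527 in low altitude libraries 1 to 3. The groups did not overlap, but the animals within each differed so much that the difference was 4.47 with an SE of 1.19 (limma, Benjamini-Hochberg adjusted p = 0.313). LPIN1, a phosphatidate phosphatase and coactivator, was at 5.23 ± 1.34 (SD, n = 3) and 10.1 ± 1.73 (0.85, limma, Benjamini-Hochberg adjusted p = 0.282). UCP3, a mitochondrial carrier induced by fatty acids, overlapped between the groups at 14.4 ± 10.3 and 39.1 ± 27.2 (1.46, limma, Benjamini-Hochberg adjusted p = 0.545). Leaving out high altitude library 1 brought the UCP3 difference to 0.82, and leaving out low altitude library 3 brought it to 0.94. PPARGC1B, a coactivator related to PPARGC1A, was at 1.67 ± 0.579 and 0.931 ± 0.384 (−0.46, limma, Benjamini-Hochberg adjusted p = 0.575). The row of SLC2A4, the insulin-sensitive glucose transporter of muscle, stayed at or below 0.298 FPKM in all libraries and was not tested. This row may not represent the gene, so no level of the transporter is read from it.

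The genes most like each receptor were found by Pearson's correlation of log2(FPKM + 1) over the 6 libraries among 6718 other tested genes with a symbol. With 6 libraries in 2 groups that stand apart, these values are descriptions that mostly follow the group difference, and they have no test. Among the 5 most like NR4A2 were KIAA0408, MAP2K6, SAP30 and KLF10, with r from 0.988 to 0.994. KLF10, a zinc finger factor induced by TGF-beta, came closest of these 4 to the receptor in size, at 0.471, 0.942 and 0.935 FPKM in high and 5.59, 6.32 and 6.81 in low altitude libraries 1 to 3. SAP30, a part of the SIN3 histone deacetylase complex, was at 2.33 ± 0.0565 (SD, n = 3) and 4.67 ± 0.478. MAP2K6, the kinase that activates p38, was at 2.65 ± 0.191 and 4.84 ± 0.0282.

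NR4A3 had other neighbours, since it also varied within each group. Those most like it were ROBO4, ITGA9, HNRNPLL, DROSHA and FRMD8, with r from 0.969 to 0.991, and none is among the 5 of NR4A2. ROBO4, a guidance receptor of endothelium, was at 2.15, 3.31 and 2.81 FPKM in high and 3.77, 6.18 and 4.29 in low altitude libraries 1 to 3. The integrin ITGA9 was at 1.23, 2.44 and 1.85 and at 3.44, 4.94 and 3.57. Both had their lowest value in high altitude library 1 and their highest in low altitude library 2, as NR4A3 did. NR4A2 and NR4A3 had an r of 0.869 with each other, rank 243 among the genes most like NR4A2 and rank 155 among those most like NR4A3.

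**Figure D5:**
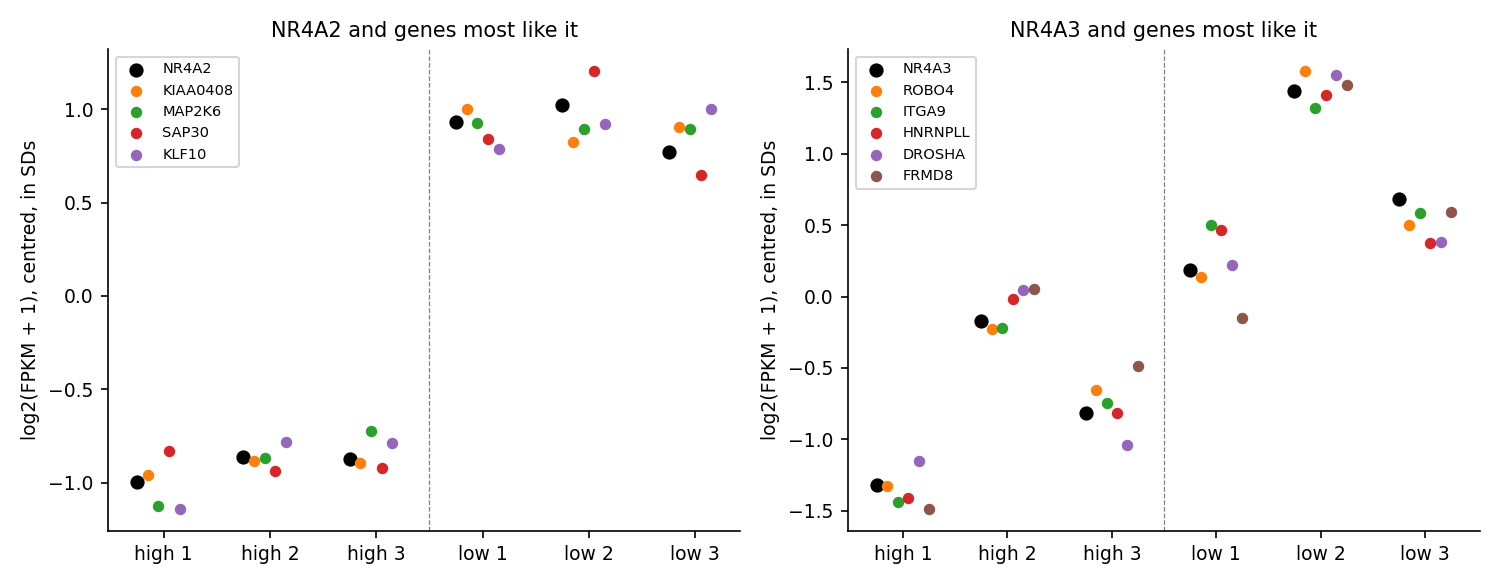
log2(FPKM + 1), centred and divided by its SD over the 6 libraries, for NR4A2 (left) and NR4A3 (right) in black and genes most like each in colour, 4 for NR4A2 and 5 for NR4A3. The dashed line separates the groups. NR4A2 and its 4 genes form a low and a high level, while NR4A3 and its 5 genes also vary within each group.

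Markers of other cells of muscle were read beside the receptors. The summed FPKM of 3 matched endothelial markers was 28.6, 44.7 and 48.2 in high and 35.6, 49.8 and 35.2 in low altitude libraries 1 to 3. These sums overlapped between the groups and were mostly PECAM1. KDR, a receptor for vascular growth factor, went the other way, at 5.74, 7.69 and 7.22 in high and 1.90, 4.75 and 1.97 in low altitude libraries 1 to 3 (−1.09, limma, Benjamini-Hochberg adjusted p = 0.303), and TEK overlapped between the groups (−0.15). The lowest endothelial sum fell in the library where NR4A3 was lowest and the highest in the library where NR4A3 was highest. The fibroblast and matrix sum did the same, at 246 in high altitude library 1 and 1067 in low altitude library 2. Other libraries did not follow this order: high altitude library 3 had an endothelial sum of 48.2 with NR4A3 at 0.783. The part of any of these cells in the NR4A3 values was not tested. The sums of 4 macrophage markers (9.08 to 10.5 in the high and 8.30 to 16.0 in the low altitude libraries) and of 5 lymphocyte markers (4.06 to 5.19 and 2.05 to 5.47) overlapped as well. So did those of 3 satellite cell, 5 fibroblast, 5 smooth muscle and pericyte, 2 adipocyte and 3 erythroid markers. None of the 28 tested markers, muscle included, passed in limma with Benjamini-Hochberg adjustment, and 3 had an unadjusted p under 0.05, beside 9.42% of all tested genes. These 3, named with TEK and PECAM1 after their values were seen, were KDR, the T cell gene CD3D (−0.66) and the satellite cell gene MYF5 (0.47), and in each the groups did not overlap.

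The genes beside NR4A2 and NR4A3 on their chromosomes, by the gene order in RefSeq's pig annotation, were looked up after the values had been seen. GPD2, the mitochondrial glycerol phosphate dehydrogenase that follows NR4A2, was at 9.86, 17.0 and 17.8 FPKM in high and 35.4, 18.6 and 24.0 in low altitude libraries 1 to 3. Its groups did not overlap but nearly met (0.76, SE 0.30, limma, Benjamini-Hochberg adjusted p = 0.488). GALNT5, the next gene, stayed at or below 0.488 in all libraries. On the other side of NR4A2, GALNT13 stayed at or below 0.111. ALG2, which lies before NR4A3, was at 0.699 to 1.89 FPKM in the high and 0.791 to 1.04 in the low altitude libraries. Its groups overlapped (−0.30, limma, Benjamini-Hochberg adjusted p = 0.704). STX17, the autophagy protein that follows NR4A3, was at 2.28 to 3.41 and 2.86 to 3.35 (0.11, and 0.21 without high altitude library 1, limma, Benjamini-Hochberg adjusted p = 0.866 and 0.553), and the groups overlapped. Without high altitude library 2 the STX17 difference was −0.002. The same annotation lists pig NR4A1 as a pseudogene and NR4A2 and NR4A3 as protein coding. That label was not checked here and does not show that pigs lack a working NR4A1. NR4A1 matched no gene of these data, so its level in this muscle is unknown.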

How the data were processed

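RNA was measured in 6 muscles, 1 per animal. Per the labels' protocols, total RNA was extracted with TRIzol and made into strand-specific dUTP libraries. TopHat2 2.0.11 and Cufflinks 2.2.1 are named, per the submitters' processing notes. The sources used here give no build, annotation or filter. The authors deposited FPKM, which hold no counts, so no count model and no counting interval was used. Symbols matched 11804 of 25322 IDs, and 6719 of 10005 tested genes.

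Values were tested as log2(FPKM + 1) with limma 3.58.1 (trend) in R 4.3.3, two-sided, where 3 or more of 6 libraries reached an FPKM of 1. Benjamini-Hochberg adjustment covered every tested gene, with a threshold of 0.05. The steps were tested on simulated data. Animals are separate, 3 per group, and this number limits the precision. Members and lists were chosen with earlier results of these data known. Named are the members, up to 4 genes per list by unadjusted p plus any that passed, and the 5 genes most like each member, and some of these genes are not reported here. Alternatives covered pseudocount, filter, scaling, fit, pairing and leaving out each library. Python 3.11.15 with matplotlib 3.10.9 drew the figures.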

Additional observations from a re-analysis of the deposited data

How the results depend on the processing

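Both receptors stayed higher at low altitude under every alternative that gave a value. The NR4A2 difference ran from 2.62 to 2.81 and that of NR4A3 from 1.09 to 1.66 when each library was left out in turn, and from 2.67 to 2.76 and 1.36 to 1.44 over the scalings. A pseudocount of 0.1 gave 3.81 and 2.17, and one of 0.5 gave 3.19 for NR4A2. A filter at a mean FPKM of 5 removed both receptors. The count of changed genes, 23, was 6 unfiltered, 9 under median-of-ratios scaling, 10 when quantile normalized, 38 with array weights and 4 to 21 when each library was left out. It fell to 11 and 4 when high altitude library 2 or 3 was left out, and to 6 and 4 when low altitude library 1 or 3 was.

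Libraries that share a replicate number did not deviate together (r of −0.02, 0.09 and −0.14 over genes), so the numbers were not read as pairs. The replicate block gave 19 changed genes, left the differences at 2.71 and 1.39, and gave an SE of 0.16 for NR4A2 and 0.14 for NR4A3.

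Of the 28 other genes named by rule from the lists, 0 changed direction and PER1 passed under all 18 alternatives. The genes most like each receptor are not among these 28. FOS passed under 2 (adjusted p of 0.0187 to 0.440 over 18 alternatives) and CCN1 under 3 (0.0110 to 0.266), by limma with Benjamini-Hochberg adjustment. By Spearman's correlation 0 of the 5 genes most like NR4A2 and 3 of the 5 most like NR4A3 were at the highest rho. Promoters and proteins were not analysed here. Unknown depth leaves the precision of NR4A values under an FPKM of 1 unknown.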
